A study of Mus musculus with 8 samples.

Results

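This report describes which transcripts expressed in cultures labelled as bone marrow mesenchymal stem cells (MSCs) carried N6-methyladenosine (m6A). They are compared by number of m6A peaks, gene class, length and transcript level. A gene was counted as expressed when both wild-type RNA-seq libraries held at least 50 estimated counts. Of 47732 entries in the expression table, 12398 met this minimum, and 12080 of them could be placed on the mm9 gene models. Each peak of m6A immunoprecipitate over input was assigned to a gene by its summit, the base of highest signal, when the summit lay in an exon. By this rule 6724 expressed genes had 0 peaks, 3415 had 1, 1261 had 2 and 680 had 3 or more. The share with at least 1 peak was 44.3% (95% Wilson interval 43.5% to 45.2%), and 28.3%, 10.4% and 5.63% of genes had 1, 2 and 3 or more peaks. These shares form the background for every count of genes with peaks that follows. The classes were thus chosen by the measured peaks themselves, so the values are descriptions and no test was made.

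The study asked how the m6A methyltransferase Mettl3 affects bone marrow MSCs. The cells came from C57BL/6 mice, and every sample had 2 days in osteogenic medium whose additions were dexamethasone (100 nM), β-glycerophosphate (5 mM) and ascorbic acid (50 μg/ml). For methylated RNA immunoprecipitation sequencing (MeRIP-Seq) there were 2 immunoprecipitates and 2 inputs, labelled wild type. For RNA-seq, 2 libraries labelled wild type were used, which the study describes as littermate controls with the floxed Mettl3 alleles and no Cre, while 2 libraries of Prx1-Cre;Mettl3fl/fl cells were not used here. The labels do not say whether replicates were separate cultures or animals. A single peak list was deposited for the 4 MeRIP samples, so replicate error of the peaks could not be had, and how deeply those samples were sequenced is unknown.

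The m6A mark is placed on nascent RNA by a complex of Mettl3, Mettl14, Wtap and partner proteins, mostly within a short motif whose core is often GGAC. Proteins of the Ythdf and Ythdc families bind the mark and affect the splicing, export, translation and decay of the RNA. In mammalian mRNA the mark is known to lie mainly near stop codons, in 3′UTRs and in long internal exons.

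The following stretches of the mm9 genome, written on the transcript strand from 5′ to 3′, show the motif nearest to the summit of 1 peak in each of 12 genes. GGAC is in capitals. The genes were chosen to cover the patterns described here: long coding exons (Ahnak, Spen, Kmt2d), transcription factors with few exons (Junb, Cebpb, Klf13), genes central to the study (Sp7, Pth1r), noncoding RNAs (Tug1, Neat1) and rare members with a peak in lists that mostly lacked one (Rpl13a, Cox7a2l).
Ahnak, chr19:9077471-9077500, plus strand: aaggctccagagtGGACatagagacaccaa
Spen, chr4:141073095-141073124, minus strand: gaccctcgagagcGGACtttacaacacggg
Kmt2d, chr15:98675410-98675439, minus strand: agaggtcactgagGGACcttcaacacatca
Junb, chr8:87501292-87501321, minus strand: gctaggggtcaagGGACacgccttctgaga
Cebpb, chr2:167515591-167515620, plus strand: gcaccgggtttcgGGACttgatgcaatccg
Klf13, chr7:71035440-71035469, minus strand: cacacatcccacaGGACtgatggtggcaac
Sp7, chr15:102189371-102189400, minus strand: ctactccttggtgGGACatgcaccctgggg
Pth1r, chr9:110624847-110624876, minus strand: tgacagttcccaaGGACgacggcttcctta
Tug1, chr11:3546758-3546787, minus strand: attttcaagaactGGACctgtgacccagaa
Neat1, chr19:5843938-5843967, minus strand: gcactgtagatcgGGACcccagtgacctcg
Rpl13a, chr7:52381314-52381343, minus strand: cctcaagaccaacGGACtcctggtgtgaac
Cox7a2l, chr17:83901618-83901647, minus strand: gctcagggcctcgGGACtcaggcggtgtct

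The motif lay at the summit itself in Kmt2d and Junb, 1 nt from it in Cebpb and 2 nt in Spen. It was 5 nt away in Neat1, 12 nt in Sp7, 15 nt in Ahnak, 17 nt in Tug1 and 25 nt in Cox7a2l. The distances in Klf13, Pth1r and Rpl13a were 39, 50 and 73 nt. GGAC, searched on the transcript strand, occurred within 50 nt of 62.3% of 8053 summits on representative transcripts. Of 397284 windows of the same width tiled along the transcripts of all expressed genes, 33.6% held it. A summit of a gene with 1 peak had the motif nearby in 62.7% of cases, against 62.4% for genes with 2 peaks and 61.8% for genes with 3 or more. These 3 shares had overlapping Wilson intervals. The longer form GGACT, which contains GGAC, was within 50 nt of 25.6% of summits and in 10.3% of tiled windows. GGAC was present in 99.5% of the transcripts, so its presence alone does not separate genes with and without a peak.

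Markers of the labelled cell type were checked in the wild-type RNA-seq libraries, which held 34069228 and 28666384 estimated counts. Of 12 mesenchymal stromal markers, 11 passed the count minimum, with a summed level of 1231 and 1146 TPM, the deposited level per transcript length, which adds up to 1000000 over all genes of a library. Ly6a (461 and 493 TPM), Itgb1 (331 and 315 TPM) and Cxcl12 (238 and 168 TPM) held most of the stromal sum. Lepr was under the minimum, at 0.27 and 0.6 TPM, and Thy1 (3.5 and 1.65 TPM) and Nt5e (4.32 and 4.25 TPM) were low. Macrophage markers summed to 16570 and 22083 TPM, and all 8 passed, 1 of them (Itgam) listed under 2 entries. Lyz2 held most of that sum, with 14418 and 20117 TPM, while Csf1r had 477 and 516 TPM and Adgre1 309 and 253 TPM. Endothelial markers summed to 0.91 and 0.75 TPM. In bulk RNA, the number of cells of a type and the RNA in each cell cannot be told apart. The RNA-seq libraries thus held macrophage RNA beside stromal RNA, and a gene counted as expressed may come from either. The part of macrophage RNA in the peak list was not tested. Counts scaled to a library total of 1000000 (CPM) were within 2-fold of each other in the 2 libraries for 99.4% of the 12080 genes.

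Of 10160 peaks in the deposited list, 8865 had an exonic summit and 8405 of these lay in an expressed gene. Another 424 lay in genes under the count minimum, 36 in genes with no entry in the expression table, 532 in introns and 728 between genes, and 35 were on unplaced sequence. An exonic summit fell in exons of several genes for 278 peaks, which were given to the gene with the most counts. Of genes with 0 exonic peaks, 137 had a summit in an intron. The number of peaks fell off steeply, from 434 genes with 3 peaks to 148 with 4, 60 with 5 and 38 genes in total with more. The highest number was 13, in Ahnak. Near the count minimum, 39 of 211 genes whose lower count was 50 to 59 had a peak (18.5%), against 41 of 281 genes at 40 to 49 (14.6%) just outside it.

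Genes with more peaks were longer, and their exons were longer still. Gene length, the summed length of all annotated exons of a gene, had a median of 3562 nt in genes with 0 peaks, 4307 nt with 1, 5142 nt with 2 and 6981 nt with 3 or more. The median number of exons hardly moved, at 9, 9, 8 and 10. By contrast, the longest exon of the representative transcript had a median of 947, 1517, 2023 and 2751 nt. The coding sequence lengthened from 1179 to 2921 nt and the 3′UTR from 663 to 1668 nt between genes with 0 and with 3 or more peaks. Over quintiles of gene length, the share of genes with a peak rose from 26.3% (24.6% to 28.1%) to 57.2% (55.2% to 59.1%), a difference of 30.9 percentage points (Newcombe interval 28.2 to 33.5). The share with 3 or more peaks rose from 0.290% to 13.9%. The gain stopped short of proportionality: summits per kb of transcript fell from 0.228 in the shortest quintile to 0.191 in the longest. These intervals cover counting error only, and genes are not independent replicates.

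Transcript level gave different orders on a scale of counts and on a scale per length. On CPM, which rises with length, the share with a peak went from 29.3% in the lowest quintile to 51.8% in the highest, a difference of 22.5 points (19.8 to 25.2). It was 37.7 points with a count minimum of 10 and 13.1 points with 200. Median CPM in replicate 1 was 25.4 for genes without a peak and 62.2 for genes with 3 or more. On TPM, which is per length, the order was a hump: 38.2%, 48.9%, 49.6%, 47.5% and 37.5% from the lowest to the highest quintile, so that the difference between the ends was −0.75 points. The highest TPM quintile held shorter genes, with a median length of 3025 nt against 4371 nt in the middle one. Median TPM differed little between peak classes in either library. It was 18.6, 18.5, 16.9 and 17.5 TPM for genes with 0, 1, 2 and 3 or more peaks in replicate 1, and 18.3, 18.0, 16.3 and 16.3 TPM in replicate 2. The upper quartile was highest for genes without a peak, at 51.0 and 51.1 TPM, and lowest for genes with 3 or more, at 37.7 and 36.3 TPM. Across the 12080 genes, Spearman's rho with the number of peaks was 0.26 for gene length, 0.18 for CPM and −0.01 for TPM. CPM and TPM come from the same RNA-seq libraries, and CPM rises with length whereas TPM is taken per length.

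**Figure D1:**
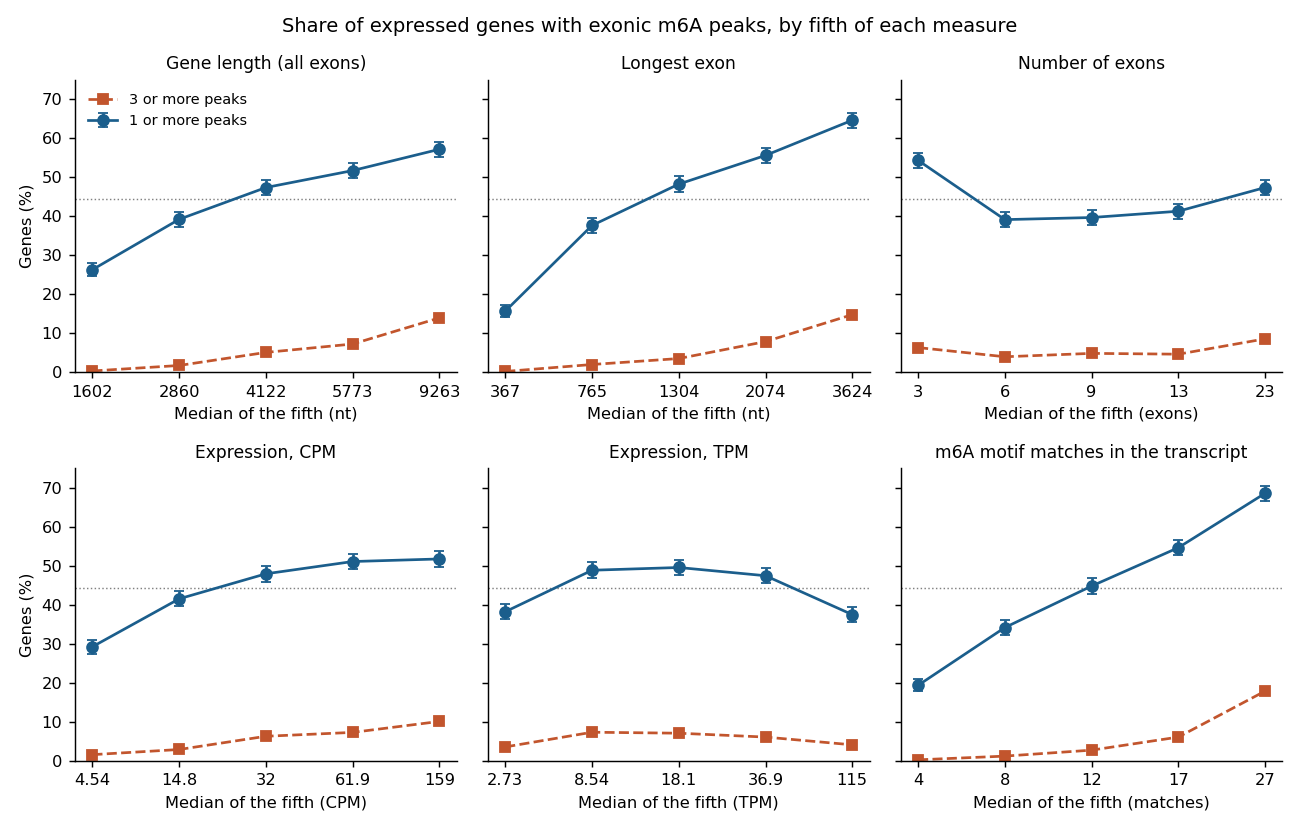
Share of expressed genes (%, y axis) with 1 or more (blue, 95% Wilson interval) and 3 or more (orange) exonic m6A peaks in quintiles of 6 measures, whose medians are on the x axes; the dotted line is the share of all expressed genes. The share rises with gene length, longest exon and motif number, peaks in the middle of the TPM scale and is lowest (39.1%) in the second quintile of exon number.

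Both length and level went with the share of genes with a peak. In the shortest quintile of genes, the share with a peak was 19.7% at the lowest CPM and lay between 28.0% and 29.3% in the other 4 CPM quintiles. In the longest quintile it climbed from 31.4% to 68.2%. Within quintiles of CPM, the difference between the longest and shortest genes averaged 27.3 points. Within quintiles of length, the difference between the highest and lowest CPM averaged 19.7 points, and that between the highest and lowest TPM 7.11 points. The hump on the TPM scale was present among the longest genes, where the share went from 42.4% to 63.3% and back to 54.6%.

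**Figure D2:**
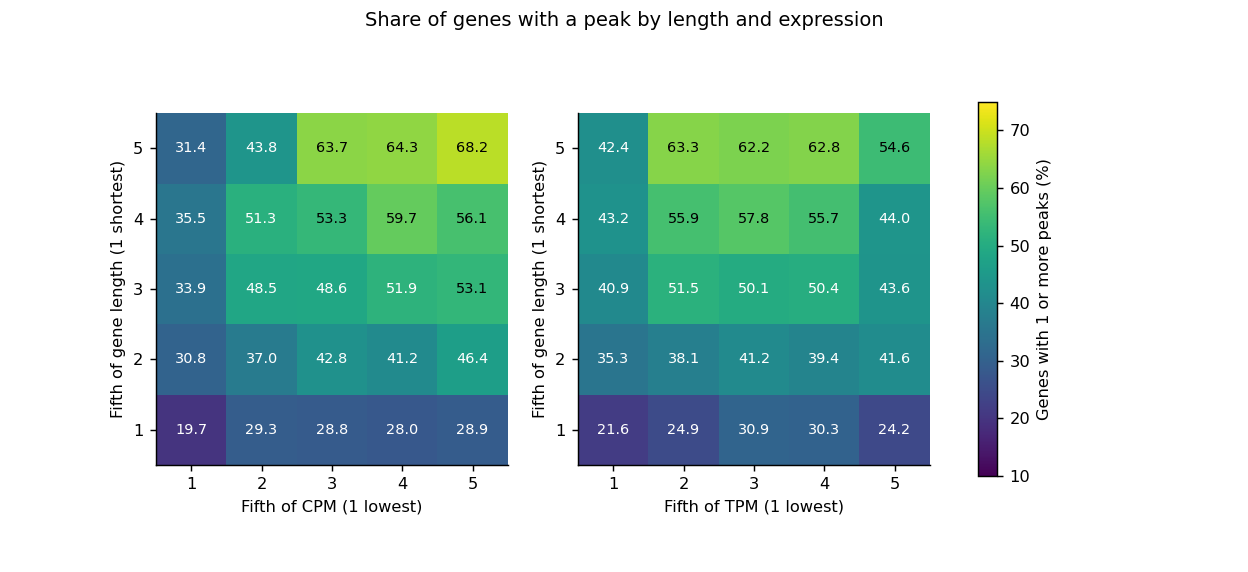
Share of genes with 1 or more peaks (%, colour and printed number) by quintile of gene length (y axis, 1 shortest) and quintile of CPM (left) or TPM (right; x axes, 1 lowest). The left panel runs from 19.7% for short genes of low CPM to 68.2% for long genes of high CPM; in the right panel the highest TPM quintile lies below the 3 middle ones in 4 of the 5 rows.

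The strength of the peaks moved with expression too. The pileup, the number of fragments over the summit, had a median of 26 in genes of the lowest CPM quintile and 107 in the highest. Fold enrichment over the local background went the other way, from 5.23 to 2.95. When only peaks with a fold enrichment of at least 3 were kept, the share of genes with a peak was 35.3% and the CPM difference shrank to 2.73 points, whereas the length difference was 30.3 points.

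Summits were unevenly spread over the kinds of exon. Internal exons of up to 150 nt made up 19.6% of the exon length of expressed coding transcripts and held 0.790% of the summits, 63 summits in 78926 exons. Internal exons over 400 nt made up 7.25% of the length and held 24.8% of the summits, and 51.6% of these 3027 exons had at least 1. In summits per kb, the values were 0.00805 for internal exons up to 150 nt, 0.0463 for those above that and up to 400 nt and 0.682 for longer ones. Last exons, which hold most 3′UTRs, had 0.252 summits per kb, first exons 0.192 and transcripts of a single exon 0.434. Of summits in exons of multi-exon transcripts, 10.9% lay within 100 nt of an exon junction, a zone that held 42.2% of the positions. How the peak caller treated reads across junctions is not given in the sources used here, and its part in these values was not tested.

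**Figure D3:**
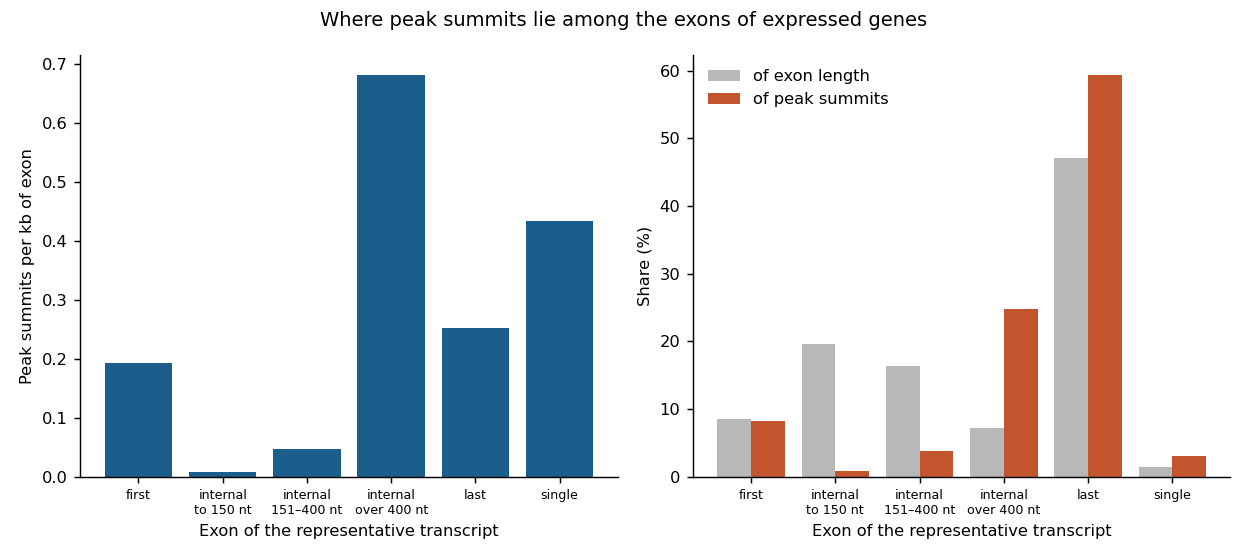
Left, peak summits per kb of exon by kind of exon in the representative transcripts of expressed coding genes; right, each kind's share of the exon length (grey) and of the summits (orange). Internal exons over 400 nt stand highest at 0.682 summits per kb, and internal exons up to 150 nt lowest at 0.00805.

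Of 2364 coding genes with an internal exon over 400 nt, 71.5% had a peak (69.6% to 73.3%) and 18.1% had 3 or more. Among 9161 multi-exon genes without such an exon the shares were 37.6% (36.6% to 38.6%) and 2.57%. The 243 single-exon genes had a peak in 66.3% of cases (60.1% to 71.9%), although their median transcript of 2069 nt was the shortest of these 3 groups. At the other end, 1379 coding genes with no exon over 400 nt had a peak in 11.2% of cases. Genes of 20 or more exons were split by structure: 74.3% of 599 with an internal exon over 400 nt had a peak, against 34.2% of 1224 without one. Genes with such an exon also had longer transcripts. The median mature length was 4325.5 nt with one and 2648 nt without among multi-exon genes. At 20 or more exons it was 6809 and 4578.5 nt, so neither contrast was made at like length. These groupings were chosen after the values were seen.

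At like transcript length, the difference by longest exon kept its direction. Within quintiles of mature transcript length, genes above the median of longest exon had a peak 7.53 to 22.5 points more often than genes below it, with the widest gap among the shortest transcripts. Genes above the median number of exons had one 11.5 to 22.2 points less often. A higher density of GGAC went with a share 11.9 to 15.1 points higher in every quintile. The length of the longest internal exon went with a difference of 21.1 points among the longest transcripts, while the shortest ones differed by −2.98 points with an interval from −6.28 to 0.33. In the second shortest quintile the difference was 2.65 points (−1.18 to 6.47). Transcripts of 1 or 2 exons, which have no internal exon, were given a length of 0 and fell below the median. Of the features compared across genes, the number of GGAC motifs in the transcript had the highest Spearman's rho with the number of peaks (0.39), followed by the longest exon (0.37) and mature length (0.34). With 0 motifs, 10 of 65 genes had a peak (15.4%), against 68.2% of 2460 genes with more than 20. This contrast was not made at like length, as the median mature length was 750 nt with 0 motifs and 5513 nt with more than 20. The values of rho were not matched for length either.

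The shares of summits by position differed with the number of peaks. Within 200 nt of the stop codon lay 44.2% of summits in genes with a single peak (42.5% to 46.0%), 26.2% in genes with 2 and 15.2% in genes with 3 or more. In the same order, the share in coding sequence rose from 61.7% to 67.5% and 74.3%, and the share in the 3′UTR fell from 33.3% to 25.7% and 21.1%. The 5′UTR held 5.08%, 6.82% and 4.61% of summits. Neighbouring summits of 1 transcript were a median of 860 nt apart, with quartiles of 563 and 1438 nt. The window of 200 nt on each side of the stop codon can thus seldom hold several summits of 1 gene. Its share of summits falls as summits per gene rise, so it does not say how often genes of each class had a summit there. In 791 of 1829 genes with several summits on the representative transcript (43.2%), all of them lay in 1 exon. Fold enrichment was alike between the classes, with medians of 3.87, 3.83 and 3.57.

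**Figure D4:**
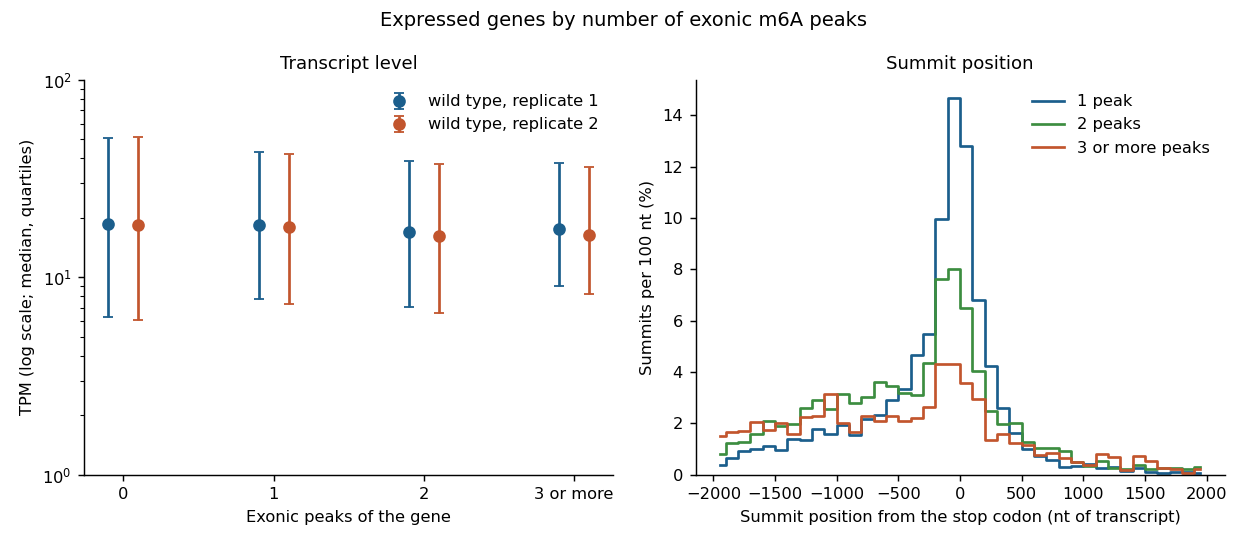
Left, TPM (log scale; median with quartiles) of genes by number of exonic peaks in the 2 wild-type RNA-seq replicates; right, position of summits from the stop codon in bins of 100 nt, as a share of the summits of genes with 1, 2, and 3 or more peaks. Median levels lie between 16.3 and 18.6 TPM in all classes, and the summit share in the bin just before the stop codon is 14.7% for genes with 1 peak and 4.31% for genes with 3 or more. These are shares of summits, not of genes.

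Most genes with the highest numbers of peaks encode very large proteins with long coding exons. Ahnak, a giant scaffold protein, had 13 peaks at 98.7 and 91.4 TPM, all 13 in its exon of 17497 nt, with fold enrichments of 2.00 to 2.86. The atypical cadherin Fat1 had 10 peaks, 4 of them in its longest exon, at 61.9 and 51.5 TPM. Ankrd11, a chromatin regulator, had 10 peaks with 8 in its exon of 6518 nt, at 29.7 and 25.6 TPM. Dst, a cytoskeletal linker, had 10, of which 4 lay on its representative transcript.

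The transcriptional repressor Spen had 9 peaks, 6 in 1 exon of 8020 nt, and its strongest reached a fold enrichment of 6.62. Zfhx3, a zinc finger homeobox factor, had 9 peaks at 3.67 and 3.10 TPM, all in coding sequence. The histone methyltransferase Kmt2d had 8 peaks, 7 of them in coding sequence of a 55-exon transcript. Map1a, a microtubule-associated protein, had all 8 of its peaks in 1 exon of 8104 nt. Plec, a linker of intermediate filaments, had 8 peaks of fold enrichment 1.82 to 2.72. Ankrd50 had 9 and Stard9 8. Pcdhga8 also had 9, but 7 of them lay outside its representative transcript, and genes of its cluster share exons, so its number is uncertain. Across these 12 genes the TPM in replicate 1 ranged from 3.67 to 98.7.

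Respiratory chain and cytosolic ribosomal protein genes mostly lacked peaks. Of 77 expressed genes listed under oxidative phosphorylation, by the respiratory chain and ATP synthase, 4 had a peak (5.19%, 2.04% to 12.6%), against 44.3% of all genes. They were Cox7a2l, Ndufb7, Atp5sl and Ndufv3. Cox7a2l, at 254 and 273 TPM, had 1 in its 3′UTR at a fold enrichment of 4.07, whereas Atp5b, a catalytic subunit of ATP synthase at 2268 and 2359 TPM, had none. Of 81 cytosolic ribosomal protein genes, 7 had a peak (8.64%, 4.25% to 16.8%) and none had more than 1. Rpl13a, at 2237 and 2508 TPM, was 1 of the 7, and Rplp0, at 1575 and 1705 TPM, was not. The median longest exon of these lists was 316 and 235 nt.

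Expressed genes with the same gene length and CPM as these 2 lists had a peak in 34.2% and 34.6% of cases. With the same mature length, longest exon and CPM, a comparison chosen after seeing the data, the figures were 27.2% and 26.5%. Both lists stood lower than these last genes, called genes of like structure here, but the bins of longest exon were wide. Coding genes with no exon over 400 nt, not matched for CPM, had a peak in 11.2% of cases. That share lay inside the intervals of both lists. Whether the lists stood lower than genes with equally short exons was not tested.

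Mitochondrial ribosomal proteins had a peak in 17 of 77 cases (22.1%, 14.3% to 32.5%, against 30.8% for like structure) and proteasome subunits in 8 of 48 (16.7%, 8.70% to 29.6%, against 28.7%). Psma6, a core proteasome subunit, was an exception with a fold enrichment of 7.21 in its 5′UTR. Translation factors had a peak in 17 of 60 cases (28.3%, 18.5% to 40.8%, against 43.6% for like structure). Cyclins, kinases and checkpoint genes had one in 11 of 39 (28.2%, 16.5% to 43.8%, against 44.1%). Splicing and hnRNP proteins stood at 21 of 66 (31.8%) and aminoacyl-tRNA synthetases at 11 of 35 (31.4%). In this last pair the intervals were 21.8% to 43.8% and 18.6% to 48.0%, beside 40.2% and 35.3% for genes of like structure. The intervals of the mitochondrial ribosomal, proteasome, splicing and aminoacyl-tRNA synthetase lists all contained the share of genes of like structure. Those of the translation factor and cell cycle lists lay below it, the latter narrowly. Of 15 chemokines, 3 had a peak, Cxcl12, Cxcl16 and Cx3cl1 (interval 7.05% to 45.2%, against 31.6% for like structure). The interval contained that share and the share of all expressed genes. Members without a peak included Ccl9 (168 and 235 TPM), Ccl6 (69.97 and 53.8 TPM), Ccl2 (68.5 and 93.5 TPM), Ccl3 and Ccl7. Core and variant histones, mostly single-exon genes, had a peak in 11 of 23 cases (47.8%), but near-identical copies can share reads.

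**Figure D5:**
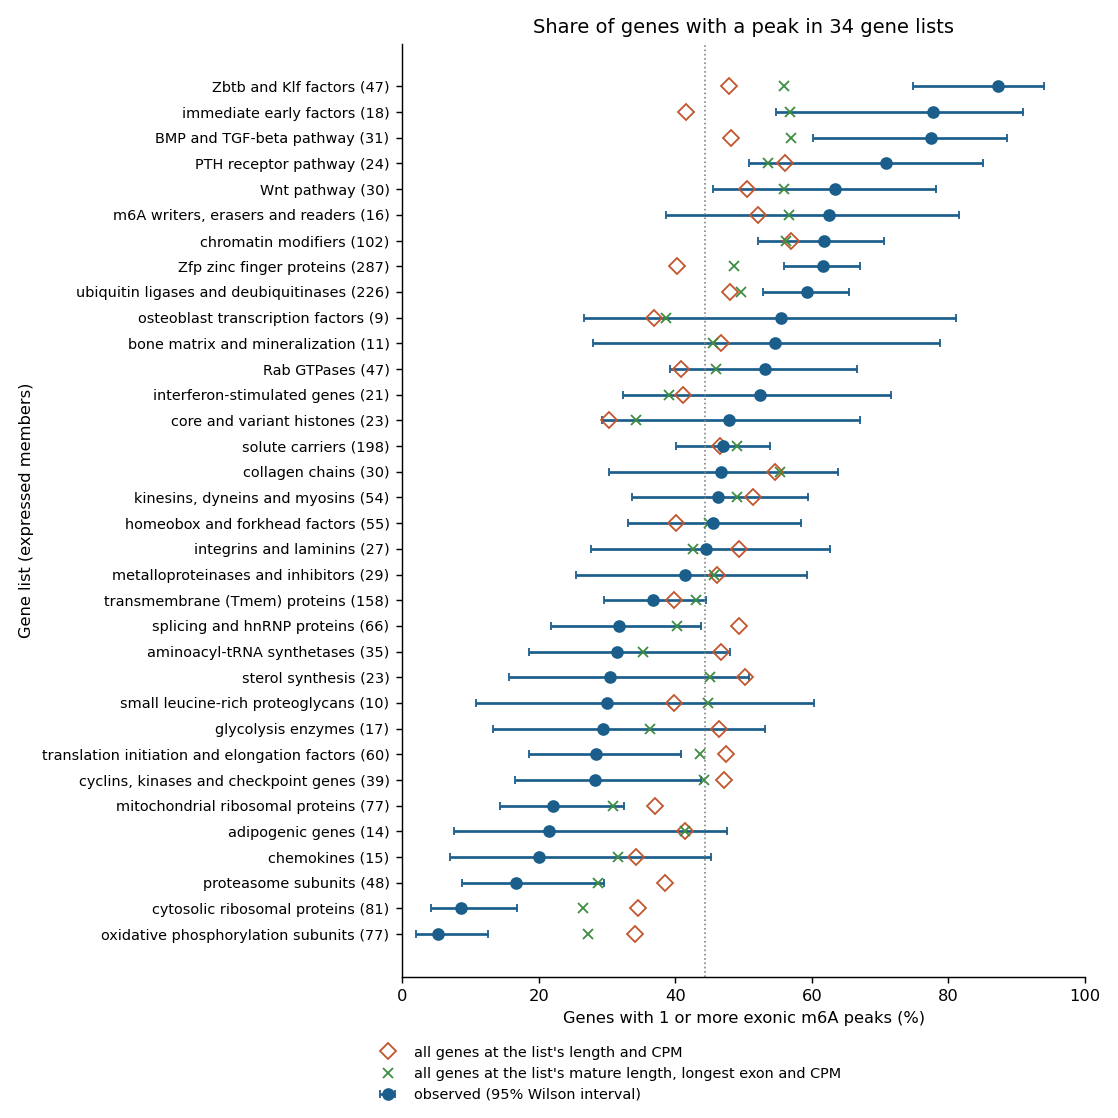
Share of expressed members with 1 or more exonic peaks (%, x axis) in 34 gene lists (y axis, number of members in parentheses): blue points are observed shares with 95% Wilson intervals, diamonds the share of all genes at the list's length and CPM, crosses the share at its mature length, longest exon and CPM. Zbtb and Klf factors stand highest at 87.2% and genes listed as oxidative phosphorylation subunits lowest at 5.19%, each with its interval away from both comparison shares.

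Zbtb and Klf genes lay at the opposite end. Of 47 genes taken by these symbols, mostly zinc finger regulators of transcription, 41 had a peak (87.2%, 74.8% to 94.0%), 17 had 2 and 10 had 3 or more. Zbtb21 had 5 peaks at 6.68 and 6.84 TPM, and Klf4, a pluripotency and differentiation factor, had 3 at 144 and 134 TPM. Klf13 had 1 strong peak in its 3′UTR, at a fold enrichment of 4.54 and 94.2 and 96.9 TPM. The 6 members without a peak were Zbtb8a, Zbtb8os, Zbtb12, Zbtb17, Zbtb20 and Zbtb33. Zbtb8os, matched by its symbol, is named for its place on the strand opposite Zbtb8a and is not a zinc finger factor. Genes of like length and CPM had a peak in 47.8% of cases, and genes of like structure in 55.9%.

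Of 287 genes named Zfp, mostly zinc finger proteins, 177 had a peak (61.7%, 55.9% to 67.1%) at a median of 5.09 and 4.72 TPM. Genes of like length and CPM stood at 40.3%, and genes of like structure at 48.6%. Many zinc finger proteins are known to have their fingers encoded in 1 long last exon. Among Zfp genes with an exon over 1000 nt, 168 of 262 had a peak, and among the other 25, 9 had one. The Zfp list and the cytosolic ribosomal protein list differed by 53.0 points (43.1 to 60.02). Genes of like length and CPM differed by 5.72 points between these lists, which left 47.3 points. Genes of like structure differed by 22.1 points, which left 30.9 points.

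Immediate early factors, the transcription factors induced first by growth stimuli, had a peak in 14 of 18 cases (77.8%, 54.8% to 91.0%). Genes of like length and CPM stood at 41.6% and genes of like structure at 56.7%, and the interval contained the latter share. Junb had 2 peaks at 309 and 344 TPM, 1 of them with its summit 12 nt from the stop codon. Jun, Fosb, Myc and Egr2 also had 2 peaks each. Fosl2 had 1 at a fold enrichment of 3.38, and Ier3, Fosl1, Nr4a2 and Nr4a3 had none. These genes spanned 1.85 TPM (Egr2) to 309 TPM (Junb) in replicate 1, so members with 2 peaks lay at both ends of the list. Ubiquitin ligases and deubiquitinases had a peak in 134 of 226 cases (59.3%) and chromatin modifiers in 63 of 102 (61.8%). For chromatin modifiers that share was near the 57.0% of genes of like length and CPM. Homeobox and forkhead factors stood at 25 of 55 (45.5%), near all expressed genes.

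In the BMP and TGF-β pathway, which directs osteoblast commitment, 24 of 31 genes had a peak (77.4%, 60.2% to 88.6%; 57.0% for like structure). They included the ligands Tgfb1, Tgfb2, Tgfb3, Inhba and Bmp4, and the receptors Tgfbr2, Tgfbr3, Acvr1, Acvr1b, Acvr2a and Bmpr2. The signal transducers Smad1, Smad2 and Smad3, the inhibitors Smad6, Smad7, Grem1 and Nog, and the target genes Id1, Id2 and Id3 had peaks too. Tgfb3, Smad3 and Smad7 had 3 each. The receptors Tgfbr1 and Bmpr1a and the shared transducer Smad4 had none, at 47.9 and 36.3 TPM for Tgfbr1 and 27.6 and 30.4 TPM for Smad4. Grem1, a secreted BMP antagonist at 89.7 and 126 TPM, had 2 peaks, the stronger at 4.01-fold enrichment.

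In the Wnt pathway, 19 of 30 genes had a peak (63.3%, 45.5% to 78.1%; 55.9% for like structure), and the interval contained the share for like structure. The receptor Fzd1 had 4 peaks on its single exon, at 57.3 and 54.1 TPM. The co-receptor Lrp6, the receptor Fzd7, the inhibitor Kremen1 and the destruction complex scaffold Apc had 3 each. β-catenin (Ctnnb1) had 2 at 331 and 272 TPM. The cytoplasmic transducers Dvl1, Dvl2 and Dvl3 had none.

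In the PTH receptor pathway, 17 of 24 genes had a peak (70.8%, 50.8% to 85.1%; 53.6% for like structure), and here too the interval contained that share. Pth1r, the receptor of parathyroid hormone, had 1 at 11.1 and 13.6 TPM, with a fold enrichment of 2.56, 53 nt from the stop codon. Gnas, the stimulatory G protein subunit at 733 and 719 TPM, had 2 peaks with summits outside its representative transcript, 1 of them in exons that another gene shares. The cyclase Adcy7 had 3. Of the kinase A subunits listed, Prkar2a had 1 peak, and Prkar1a (202 and 200 TPM), Prkaca and Prkacb had none.

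Of 9 expressed osteoblast transcription factors, 5 had 1 peak each (55.6%, 26.7% to 81.1%; 38.7% for like structure). The interval contained that share and the 44.3% of all expressed genes. Among the 5 were Sp7, Msx1, Msx2 and Twist1. Sp7, required for osteoblast differentiation, had a fold enrichment of 3.76 at 3.19 and 4.23 TPM. Runx2, the master regulator of the lineage, had 0 peaks at 15.5 and 15.2 TPM, and Dlx5 had 0 at 22.6 and 26.3 TPM. Among 11 bone matrix and mineralization genes, 6 had a peak (54.5%, 28.0% to 78.7%; 45.5% for like structure), and this interval also contained both shares. Osteopontin (Spp1) had 3, at 6714 and 16163 TPM, a higher level in replicate 2. Col1a1 and Col1a2, the chains of type I collagen, had 2 and 3 peaks, at 434 and 432 TPM for Col1a1. Sparc, a collagen-binding matrix protein at 2255 and 2500 TPM, the phosphatase Alpl at 35.1 and 43.1 TPM, and periostin (Postn) had none. Bglap fell under the minimum, with 59.8 and 49.99 estimated counts, and its near copy Bglap2, with 1 peak, may share its reads.

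The adipogenic list of 14 genes had few peaks (3 of 14, 21.4%, 7.57% to 47.6%; 41.4% for like structure). The 3 were Cebpa, Cebpb and Adipoq, the first pair being single-exon transcription factors of adipocyte differentiation. Cebpa had 2 peaks at 118 and 120 TPM, and Cebpb had 1 at 82.4 and 122 TPM with a fold enrichment of 4.69. Adiponectin (Adipoq) had 1 at 27.1 and 25.2 TPM, with a pileup of 18. Pparg, the main regulator of fat cell formation, had 0 at 13.1 and 12.6 TPM. The lipid handling genes Plin1, Plin2, Fabp4, Cd36, Lpl, Lipe, Pnpla2, Dgat1 and Dgat2 and the hormone gene Lep also had 0, and Fabp4 has no GGAC in its representative transcript. With 14 genes, the interval of this list reaches the share of all expressed genes.

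Of the machinery of m6A itself, 10 of 16 genes had a peak (62.5%, 38.6% to 81.5%), an interval that contains the 56.6% of genes of like structure. Among the writer complex, Zc3h13 had 5, Rbm15 had 3, Wtap had 2 and Cbll1 had 1. Mettl3, the catalytic subunit, and Mettl14, its partner, had 0, at 16.9 and 15.8 TPM for Mettl3 and 9.20 and 8.58 TPM for Mettl14. Both erasers had peaks, 2 in Alkbh5 and 1 in Fto. The readers Ythdf1, Ythdf2 and Ythdf3 had 2 each and Ythdc1 had 3, while Ythdc2, Igf2bp2 and Igf2bp3 had 0.

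Among structural and membrane genes the shares lay nearer to that of all genes. Collagen chains had a peak in 14 of 30 cases (46.7%), integrins and laminins in 12 of 27 (44.4%), kinesins, dyneins and myosins in 25 of 54 (46.3%), and solute carriers in 93 of 198 (47.0%). Metalloproteinases and their inhibitors stood at 12 of 29 (41.4%), Rab GTPases at 25 of 47 (53.2%), interferon-stimulated genes at 11 of 21 (52.4%) and Tmem genes at 58 of 158 (36.7%). Col2a1, the main cartilage collagen at 704 and 633 TPM, had 1 peak in coding sequence, and Col4a2, a basement membrane collagen at 122 and 109 TPM, had 0. Timp2, an inhibitor of metalloproteinases, had 2 peaks, the stronger of 6.54-fold enrichment in the 5′UTR, while the collagenase Mmp13, at 335 and 348 TPM, had 0. Sterol synthesis genes had a peak in 7 of 23 cases (30.4%). Insig1 and Srebf2, regulators of the pathway, had 0. Glycolysis enzymes stood at 5 of 17 (29.4%) and small leucine-rich proteoglycans at 3 of 10.

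The most abundant mRNAs were on both sides. Apoe, a lipid carrier, had the most counts of any coding gene, 33083 and 31080 TPM, and 1 peak of pileup 348, the highest in the list, at 2.19-fold enrichment. Lyz2, a macrophage lysozyme, had 1 peak in its 3′UTR at 14418 and 20117 TPM. The cathepsins Ctsb and Ctsd had 1 each in the 3′UTR, and the elongation factor Eef1a1 had 1 at 5238 and 5061 TPM, with its summit 20 nt from the stop codon. Fibronectin (Fn1), at 940 and 685 TPM, had 4 peaks in coding exons, 987 nt or more from the stop codon. In these genes fold enrichment was low, from 1.72 for the weaker of 2 peaks in the ferritin gene Ftl1 to 3.74 in Spp1.

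Abundant mRNAs without a peak included galectin-3 (Lgals3) at 4108 and 5740 TPM, Gapdh at 1961 and 2075 TPM, the lysosomal protein Lamp1 at 1172 and 1090 TPM and the chaperone Hspa8 at 918 and 958 TPM. Lox, a collagen cross-linking enzyme at 806 and 726 TPM, had 0 despite an exon of 3165 nt and 16 GGAC motifs. Stab1, a scavenger receptor of 7999 nt at 574 and 479 TPM, had 43 GGAC motifs and 0 peaks, and the longest of its 69 exons has 230 nt. Of 13 genes of the mitochondrial genome, 3 had a peak, and mt-Co1, at 8286 and 8068 TPM, had 0. Nuclear copies of mitochondrial genes make these reads uncertain.

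Noncoding genes had peaks less often. Of 312 expressed genes that were not protein-coding, 62 had a peak (19.9%, 15.8% to 24.7%), against 45.0% of 11768 coding genes. Genes of like structure and CPM as the noncoding ones stood at 33.8%. By class, 22 of 72 lincRNAs (30.6%), 15 of 75 processed transcripts, 16 of 101 pseudogenes (15.8%) and 5 of 50 antisense genes (10.0%) had a peak. For lincRNAs the interval of 21.1% to 42.0% contained the shares for like length and CPM (33.7%) and like structure (39.6%). The intervals of processed transcripts, pseudogenes and antisense genes lay below both of their own such shares. The peak list has no strand, so a peak in an antisense gene cannot be told from one in the gene opposite. Malat1, an abundant nuclear RNA at 982 and 1006 TPM, had 3 peaks on its single exon, with fold enrichments up to 4.27. Neat1, the scaffold of nuclear paraspeckles at 228 and 186 TPM, had 2. Tug1 had 3 of 4.73 to 6.28-fold enrichment at 54.4 and 48.9 TPM. Xist, the RNA of X inactivation, of 17041 nt at 78.6 and 62.1 TPM, had 0.

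Some of the longest transcripts had no peak. Among the longest transcripts without one, Ubr4, a ubiquitin ligase of 15954 nt at 83.9 and 95.8 TPM, has 107 exons, the longest of 364 nt, and 81 GGAC motifs. Gm4117 (52401 nt), Zbtb20, Strbp, Onecut2, Lpp and Nbeal1 have a longest exon of 7438 nt (Nbeal1) or more instead. Of these, Gm4117, Strbp and Onecut2 stood at 2.29 TPM or less in both libraries. Among the shortest with a peak, the histone gene Hist1h4m has 402 nt in 1 exon, and Med11, Sumo3 and Ufm1 had representative transcripts of 445, 487 and 381 nt but longer gene lengths of 1046, 3826 and 5958 nt. In Ufm1 the summit lay outside the representative transcript.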

How the data were processed

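Cultures labelled as MSCs were profiled by MeRIP-Seq (2 m6A immunoprecipitates, 2 inputs) and by RNA-seq (2 libraries labelled wild type). Per the study's methods, mRNA for MeRIP-Seq was fragmented to about 100 nt, captured with an m6A antibody and eluted with free m6A. The submitters' processing notes name TopHat, MACS2 and mm9, and HISAT2 2.0.4 and mm10, without roles. The authors deposited 1 peak list whose value columns are a pileup signal, the fold enrichment (a ratio to local background), a p-value as −log10 and a q-value as −log10. The headers of these last 2 columns are damaged, and the larger was read as the p-value. It is not given in the sources used here whether the samples were pooled, and the depth is unknown. The authors deposited estimated counts per gene, not normalized, and values headed FPKM that sum to 1000000 in each library and are called TPM here. The 4 columns of the knockout libraries were not used. CPM was computed from the estimated counts of 47643 named entries.

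Summits were placed on GENCODE vM1 exons of mm9. Expressed genes were matched by gene ID (11974) or symbol (106), and 318 had no model. No coordinates were converted, and gene length was taken from the expression table. The representative transcript was the one with the longest coding sequence. Quintiles were taken by rank. Shares have 95% Wilson intervals and differences Newcombe intervals, both for counting error only. Standardised shares weight the share of all genes in cells of length and CPM (5 by 5), or of mature length, longest exon and CPM (4 bins each), by the list's genes. Placement was checked on summits simulated in 600 genes, of which 100% were recovered. Python 3.11.15, pandas 2.3.3 and scipy 1.17.1 were used.

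The genes, the 34 lists and the tests were chosen with earlier results of these data known. Named genes are the 12 with the most peaks, the most abundant coding (12 without, 8 with a peak) and noncoding ones (8 with, 5 without), the 8 longest without and the 8 shortest with a peak, the 2 most abundant members of each list with and without a peak, and genes named by the study. Further list members were named after their values were seen. Some genes under this rule are not reported here. Alternatives covered the count minimum, each RNA-seq library left out, peak thresholds and the placement rule. Genes of 1 cluster that share exons, near-identical copies and retained-intron models, which inflate gene length, limit the placement.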

Additional observations from a re-analysis of the deposited data

How the results depend on the processing

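No paired analysis was possible because the results come from no test between samples. The share of genes with a peak (44.3%) was 39.8% with a count minimum of 10, 47.4% with 200, 42.4% for peaks of −log10 q of at least 5, 35.3% for fold enrichment of at least 3, 43.3% for summits on the representative transcript and 43.2% without summits in several genes. It ranged from 43.7% to 44.0% when 1 wild-type library was left out. For 3 or more peaks (5.63%) the values were 4.92%, 6.43%, 5.15% and 2.90% under the first 4 of these, and 5.53% to 5.58% with a library left out.

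The difference by CPM (22.5 points) was 37.7 with a minimum of 10, 13.1 with 200, 2.73 with fold enrichment of at least 3, 19.7 within quintiles of length and 7.11 on TPM within quintiles of length, the last chosen after seeing the data. It turned to −0.75 on TPM, and ranged from 22.5 to 26.0 with a library left out. The difference by gene length (30.9 points) was 42.3 on mature length and 27.3 within quintiles of CPM, and 30.6 to 30.9 with a library left out. The difference between Zfp and ribosomal protein genes (53.0 points) was 61.5 with a minimum of 200 and 51.5 to 52.3 with a library left out. The shares of genes of like length and CPM differed by 5.72 points between these lists, and those of genes of like structure by 22.1. Subtracting them left 47.3 and 30.9 points. The standard by structure and both subtractions were chosen after seeing the data. The cause of these shifts was not tested. The unknown MeRIP depth limits every count of 0 peaks to peaks detectable in this list.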
